A study of Mus musculus with 4 samples.

Results

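The replication-dependent histone genes were described in 3 lists of accessible chromatin from mouse mammary epithelial cells. They were taken as all protein-coding genes of the GENCODE vM1 annotation whose symbol begins with Hist1h, Hist2h, Hist3h or Hist4h, which gave 67 of the 22350 protein-coding genes on chromosomes 1 to 19 and X. They comprised 6 H1, 19 H2A, 18 H2B, 11 H3 and 13 H4 genes. The cells were NMuMG, an epithelial line established from the mammary gland of normal mice, and open chromatin was measured by ATAC-seq, in which the transposase Tn5 inserts adapters where DNA is not covered by nucleosomes. The vehicle sample and the TGFβ sample were kept in complete medium for 2 h with the carrier solution or with TGFβ1 at 5 ng per ml. A second pair went without serum and insulin for 6 h before it received vehicle or the same dose of TGFβ1 for 10 min. A characteristics field of that TGFβ sample gives 2 h, and its title, which gives 10 min, was followed. The labels of both starved samples name 1 and the same list, so the 10 min list was described as a whole and was not split by treatment. Each list was a set of called peaks with a score, and a condition had a single list. The lists hold no read counts. Read totals that accompany the study, not used as data here, are lower for the TGFβ than for the vehicle library of the complete-medium pair. Conditions could not be tested against each other, and all differences below compare these lists and have no replicate check.

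Replication-dependent histone genes supply the histones that package newly made DNA, and their transcription rises when cells enter S phase. Most are short, lack introns and lie in clusters, and H2A and H2B genes often stand back to back and share the DNA between them as a common promoter. Their transcripts end in a conserved stem-loop instead of a poly(A) tail. The core histones H2A, H2B, H3 and H4 form the nucleosome, and H1 binds the DNA between nucleosomes. In an epithelial line that is dividing, many of these genes are normally in use, while a few members (Hist1h1t, Hist1h2aa and Hist1h2ba) encode testis forms.

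A region was made by dropping intervals under 150 bp and joining neighbours separated by less than 1000 bp. A gene was called open when a region lay within 1000 bp of any of its annotated transcription start sites (TSSs). By this rule 41 of the 67 genes (61.2%) were open in the vehicle list, and 43 (64.2%) were open in the TGFβ list and again in the 10 min list. Over all protein-coding genes the corresponding shares were 41.0%, 47.6% and 46.3%. In all 3 lists 40 histone genes (59.7%) were open, against 39.9% of all protein-coding genes, and 23 (34.3%) had no region in any list, against 50.4%. The 81 ribosomal protein genes, another group in constant use in growing cells, were open more often in each list, with shares of 81.5%, 86.4% and 87.7%, and 10 of them (12.3%) had no region in any list.

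**Figure D1:**
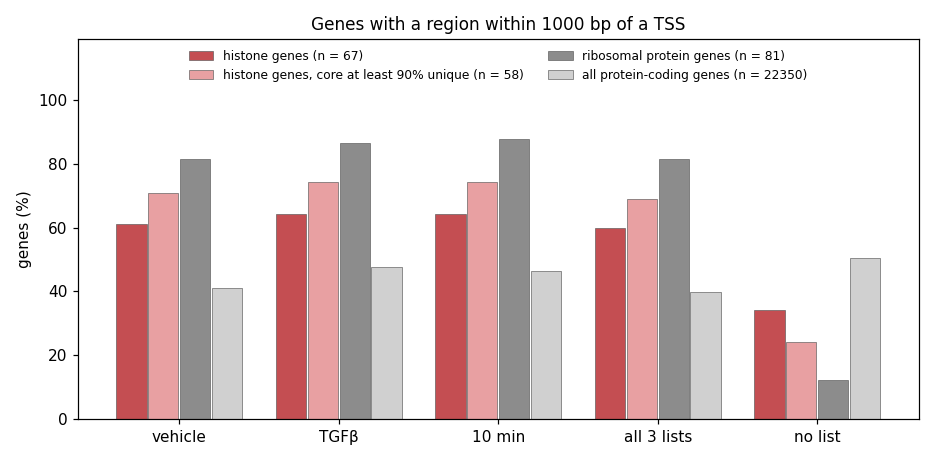
Share of genes (y axis, %) with a region within 1000 bp of a TSS in each list, in all 3 lists and in none, for the 67 histone genes, the 58 of them whose promoter core is at least 90% unique in the genome, 81 ribosomal protein genes and 22350 protein-coding genes. The histone genes lie between all protein-coding genes and the ribosomal protein genes in every list.

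The sequence of the promoters is shown first, because the genes stand so close together that 1 stretch of open DNA often serves a pair of them. Between Hist1h2ah and Hist1h2bk, which were open in every list, between Hist1h2ag and Hist1h2bj, also open in every list, and between Hist1h2ak and Hist1h2bn, which had no region in any list, the DNA from TSS to TSS reads as follows on the plus strand of mm9 (chr13:22127512-22127690, chr13:22134818-22135083 and chr13:21845776-21845992). The 4th sequence (chr13:21902068-21902236) lies between Hist1h2bq and Hist1h2ao, which are part of a repeated stretch described further on. Capitals mark TATAAA, the CCAAT box and the octamer ATTTGCAT on either strand (ATTGG is CCAAT and ATGCAAAT is ATTTGCAT on the other strand).
Hist1h2ah to Hist1h2bk: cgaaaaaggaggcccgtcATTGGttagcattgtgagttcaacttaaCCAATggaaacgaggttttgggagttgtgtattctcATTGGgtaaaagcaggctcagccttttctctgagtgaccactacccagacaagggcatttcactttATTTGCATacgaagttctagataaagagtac
Hist1h2ag to Hist1h2bj: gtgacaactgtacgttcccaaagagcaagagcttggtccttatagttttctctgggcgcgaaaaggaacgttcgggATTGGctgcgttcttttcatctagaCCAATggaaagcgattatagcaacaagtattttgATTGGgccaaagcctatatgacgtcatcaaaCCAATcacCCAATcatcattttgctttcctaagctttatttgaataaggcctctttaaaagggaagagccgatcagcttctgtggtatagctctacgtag
Hist1h2ak to Hist1h2bn: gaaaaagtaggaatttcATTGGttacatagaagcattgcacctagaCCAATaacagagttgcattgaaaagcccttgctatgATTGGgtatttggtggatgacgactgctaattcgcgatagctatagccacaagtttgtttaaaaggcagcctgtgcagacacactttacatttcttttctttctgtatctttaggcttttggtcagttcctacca
Hist1h2bq to Hist1h2ao: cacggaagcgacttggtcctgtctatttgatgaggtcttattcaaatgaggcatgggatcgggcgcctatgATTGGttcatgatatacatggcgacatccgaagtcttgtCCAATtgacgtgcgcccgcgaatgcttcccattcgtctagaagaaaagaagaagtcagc
All of them hold CCAAT boxes on both strands, the pair with no region included, and the octamer, a sequence bound by the POU factor Oct-1, was present only in the first.

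Over the 300 bases from 250 before to 50 after the TSS, with both strands searched, CCAAT was present at 57 of the 67 genes (85.1%), against 37.9% of all protein-coding genes. It was present at all 6 H1, all 19 H2A and all 18 H2B genes, at 10 of 11 H3 genes and at 4 of 13 H4 genes. TATAAA was present at 38 genes (56.7%, against 13.4%), and at 13 genes (19.4%, against 2.72%) it began between 50 and 20 bases before the TSS on the strand of the gene. The octamer was present at 15 genes (22.4%, against 1.73%), 7 of them H2A and 8 H2B genes. Neighbours in a back-to-back pair share most of this window, so these genes are not independent. The AP-1 sequences TGACTCA and TGAGTCA, which are the same site read on the 2 strands, were present at 0 of 67 histone promoters and at 4.42% of all promoters. The median GC content was 46% against 55.3%. These shares describe letters only. CCAAT was present at 34 of the 40 genes open in every list (85%) and at 12 of the 14 genes with a unique promoter and no region (85.7%). TATAAA was present at 25 (62.5%) and 6 (42.9%) of these genes, and the octamer at 11 (27.5%) and 3 (21.4%).

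The stem-loop at the end of the transcript was searched in the 100 bases after the stop codon, as arms of 6 bases that pair, G with T allowed, around a loop of 4 bases, with the first arm starting GG and the loop starting TT. It was found at 62 of the 67 genes (92.5%) and at 72 of 21836 other protein-coding genes (0.33%) with an annotated stop codon. The commonest forms are shown with the arms in capitals.
39 genes: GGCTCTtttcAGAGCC
9 genes: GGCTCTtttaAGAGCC
8 genes: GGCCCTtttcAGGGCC
It was not found by this search at Hist1h3g, Hist1h4a, Hist1h2al, Hist2h2be and Hist2h2bb. Called intervals rarely lay over the stem-loop, and no count at the ends of other genes was made for comparison. Of the genes that had both a stem-loop and a region, 0 of 38 in the vehicle list, 1 of 40 in the TGFβ list and 2 of 40 in the 10 min list had an interval over the stem-loop itself.

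The open members are counted by family, as the grid of genes by list shows. Of all protein-coding genes 39.9% were open in every list. The counts include 9 genes with a largely repeated promoter core and genes whose region lay beyond 200 bp of the TSS. In the vehicle list, for example, 8 of the 11 H3 genes had a region and 4 had an interval over the TSS. Differences between families were not tested. Among the linker histones 3 of 6 genes were open in every list (Hist1h1a, Hist1h1d and Hist1h1e), 2 in none (Hist1h1b and the testis form Hist1h1t) and Hist1h1c differed between lists. Among H2A genes 10 of 19 were open in every list, 7 in none and 2 differed. Among H2B genes 12 of 18 were open in every list and 6 in none. Among H3 genes 8 of 11 were open in every list, 2 in none and 1 differed. Among H4 genes 7 of 13 were open in every list and 6 in none.

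**Figure D2:**
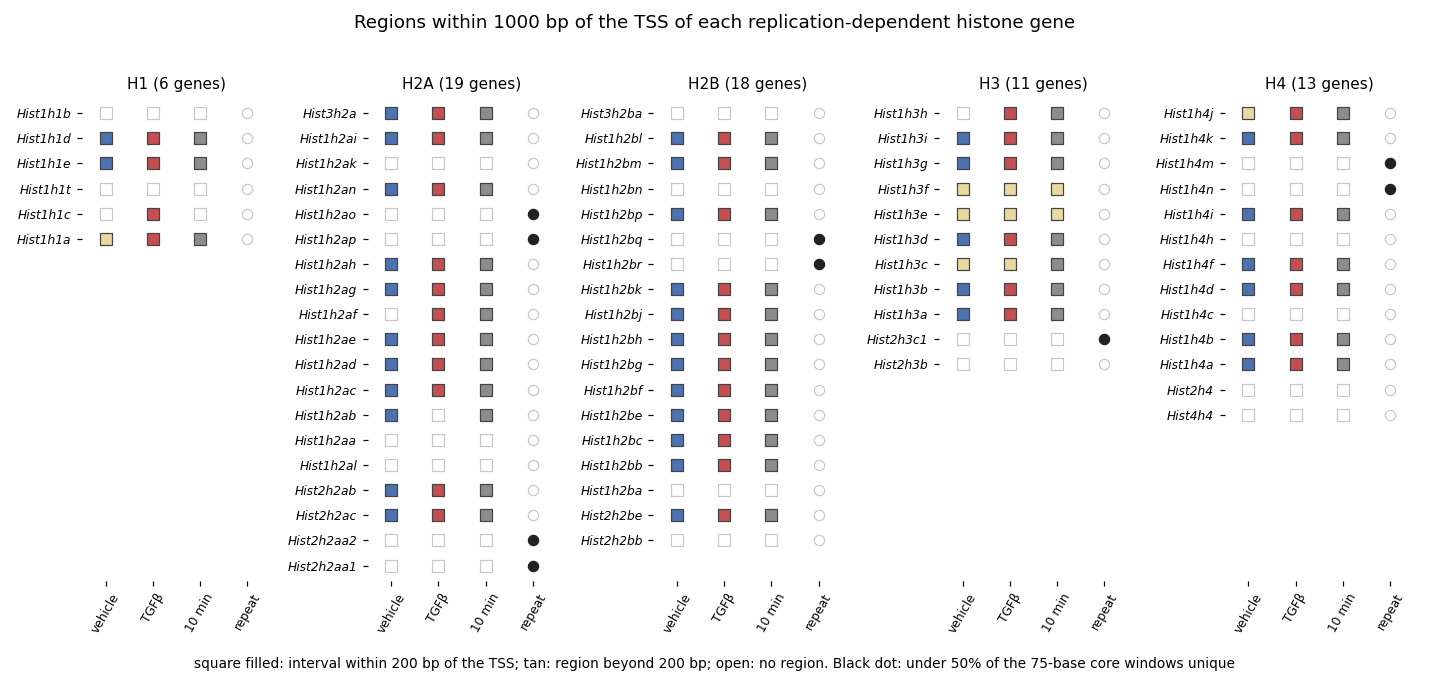
Each row is 1 histone gene, grouped by family, and each column is 1 list, with squares filled where an interval lies within 200 bp of the TSS, tan where the region lies further away, and open where there is no region. Black dots mark the 9 genes for which fewer than 50% of the 75-base windows of the promoter core occur once in the genome, and none of these 9 had a region in any list.

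The widest interval over a TSS in the vehicle list is given for each family with its values in the other lists. Among H1 genes it was that of Hist1h1d (H1.3), 569 bp wide with a score of 821 in the vehicle list, 392 bp (835) in the TGFβ list and 410 bp (918) in the 10 min list. Among H2A genes it was that of Hist3h2a, with 594 bp, 357 bp and 736 bp, all at the score cap of 1000. Among H2B genes it was that of Hist1h2be, with 692 bp (1000), 350 bp (838) and 1260 bp (1000). In these 3 genes the TGFβ interval was narrower than the vehicle interval. They were chosen as the widest in the vehicle list, and that choice favours a narrower interval in another list. Over the 30 histone genes with an interval over the TSS in both complete-medium lists, it was wider in the TGFβ list at 21 and narrower at 9. Among H3 genes the widest vehicle interval was that of Hist1h3a, with 241 bp, 243 bp and 246 bp, all at the cap. Among H4 genes it was that of Hist1h4d, with 317 bp (1000), 341 bp (1000) and 398 bp (881). The H3 and H4 examples thus differed little in width between the complete-medium lists.

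The annotation of Hist1h2be needs care. The gene is annotated over 37383 bp, with its TSSs far upstream of its coding sequence and next to Hist1h1e, the gene of linker histone H1.4. The interval given above lies at this upstream TSS. A separate region lay over the start codon, 243 bp wide with a score of 995 in the vehicle list, 260 bp (926) in the TGFβ list and 274 bp (947) in the 10 min list. Both sites were thus present in all 3 lists.

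The unmerged intervals over histone TSSs were short, and they ended soon after the TSS. An interval of any width over the TSS was present at 31, 38 and 41 genes in the vehicle, TGFβ and 10 min lists, as 26, 31 and 33 distinct intervals, of which 5, 7 and 8 covered a pair of TSSs. Their median widths per gene were 332 bp, 341 bp and 398 bp, against 511 bp, 510 bp and 739 bp over all protein-coding genes. Ribosomal protein genes had 386 bp, 382 bp and 631 bp, in the complete-medium lists closer to the histone genes than to all genes. The median edge downstream of the TSS was at +85 bp, +87.5 bp and +101 bp, against +215 bp, +217 bp and +340 bp. The median upstream edge was at -241 bp, -253 bp and -297 bp, against -264 bp, -257 bp and -365 bp. The downstream edge lay within 150 bp of the TSS at 83.9%, 84.2% and 70.7% of the histone genes with such an interval, against 39.8%, 39.7% and 16.8% of all genes with one. The ribosomal protein genes lay between, with 48.4%, 61.4% and 23.9%. Over a window wider than the promoter core, a median of 83.4% of short sequences at histone genes occurred once in the genome. The median was 98.8% for ribosomal protein genes and 100% for all protein-coding genes. Whether reads that could not be placed past the TSS shortened the histone intervals, or made the families differ in width, was not tested.

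**Figure D3:**
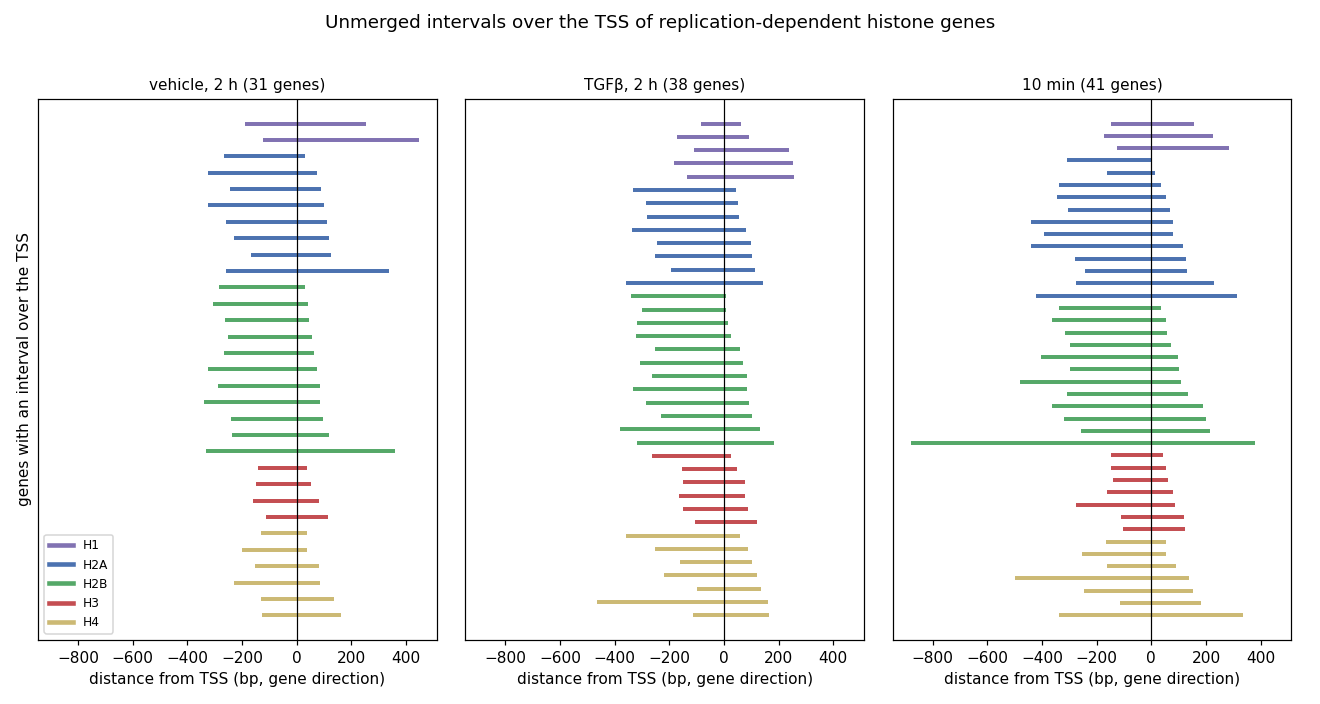
Extent of the unmerged interval over the TSS (horizontal bars, bp from the TSS in the direction of the gene) for each histone gene that has one, coloured by family, in the vehicle list (31 genes), the TGFβ list (38) and the 10 min list (41). Most bars reach further upstream than downstream, and the H3 intervals are the shortest, with medians of 214.5 bp, 231.5 bp and 227 bp.

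The families differed in width in the same order in the vehicle and 10 min lists for the core histones, with H2A and H2B wider than H4 and H4 wider than H3. The H2A and H2B values are not independent. In the vehicle, TGFβ and 10 min lists 5, 7 and 8 intervals covered both TSSs of a pair and count in both families. Median widths in the vehicle list were 360.5 bp for H2A (8 genes), 349 bp for H2B (11), 253 bp for H4 (6) and 214.5 bp for H3 (4). In the 10 min list they were 402 bp (12 genes), 458 bp (12), 309 bp (7) and 227 bp (7). In the TGFβ list H4 was at 341 bp (7 genes), close to H2A at 352 bp (8) and H2B at 350 bp (12), and H3 was at 231.5 bp (6). For H1, with 2, 5 and 3 genes, the median widths were 506 bp, 349 bp and 401 bp. The median downstream edge lay at +350 bp, +239 bp and +227 bp, further into the gene than the median edge of any core histone family. Single core histone genes reached further, such as Hist1h2be at +358 bp in the vehicle list. The 5 H1 genes of the TGFβ list include Hist1h1b, whose interval of 148 bp the region rule drops. The score was at the cap for 61.3%, 73.7% and 51.2% of the histone genes with an interval over the TSS, against 55.3%, 68.8% and 57.5% of all genes. Several summits were recorded in 58.1%, 42.1% and 53.7% of the histone intervals, against 80.9%, 78.1% and 92.8%.

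Of the 30 genes with an interval over the TSS in both complete-medium lists, the TGFβ interval was wider at 21 (70%) and narrower at 9, with a median difference of 17 bp. Over the 8226 protein-coding genes of this kind it was wider at 55.03%, with a median difference of 15 bp. Counted over distinct intervals, 18 of 25 were wider and 7 narrower, and the difference ranged from -342 bp at Hist1h2be to 336 bp at Hist1h4a. The median difference at histone genes was thus close to that of all genes.

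There were 13 back-to-back pairs, with TSSs 168 to 693 bp apart, 12 of an H2A with an H2B gene and 1 of Hist1h2bh with Hist1h3f. In each list 9 of the pairs had exactly 1 interval between the TSSs and 4 had none, and they were the same 4 pairs in every list: Hist1h2ak with Hist1h2bn, the testis pair Hist1h2ba with Hist1h2aa, Hist1h2bq with Hist1h2ao, and Hist1h2ap with Hist1h2br. The intervals of the 9 pairs were 298 to 426 bp wide in the vehicle list, 309 to 504 bp in the TGFβ list and 373 to 556 bp in the 10 min list. They were at the score cap in 6, 9 and 8 of the 9 pairs and covered both TSSs in 5, 7 and 8. For the Hist1h2bl and Hist1h2an pairs both TSSs were covered in the TGFβ list, while the vehicle interval ended 4 bp and 2 bp short. The annotated TSS of each of these genes is its start codon, so the difference between 5 and 7 is not read as broader coverage. For the sequence between Hist1h2ah and Hist1h2bk printed above, 178 bp from TSS to TSS, the interval was 332 bp, 335 bp and 473 bp wide and at the cap in every list. For Hist1h2ag and Hist1h2bj, 265 bp apart, it was 310 bp, 313 bp and 373 bp wide, also at the cap, and in the complete-medium lists its edge fell just short of the Hist1h2ag TSS, at -2 bp and -11 bp.

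The other pairs are given with the width of the shared interval in the vehicle, TGFβ and 10 min lists. It was 298 bp, 337 bp and 377 bp between Hist1h2bl and Hist1h2ai and 337 bp, 377 bp and 399 bp between Hist1h2an and Hist1h2bp, the Hist1 pairs whose interval was below the score cap in the vehicle list. It was 372 bp, 504 bp and 504 bp between Hist1h2ae and Hist1h2bg, 349 bp, 309 bp and 375 bp between Hist1h2bf and Hist1h2ad, and 401 bp, 418 bp and 556 bp between Hist1h2ac and Hist1h2bc, all at the cap. It was 313 bp, 377 bp and 443 bp beside Hist1h2bh, also at the cap. Hist1h2bf with Hist1h2ad was thus the only one of these 6 pairs with a narrower interval in the TGFβ list than in the vehicle list. Of the 5 H2B genes without a back-to-back partner among the histone genes, Hist3h2ba and Hist2h2bb had no region in any list and Hist1h2be is described above. The interval was 308 bp, 350 bp and 419 bp wide at Hist1h2bm and 357 bp, 514 bp and 593 bp wide at Hist1h2bb, at the cap in every list.

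Most H3 and H4 genes stand alone, and their intervals were narrow. At the H3 genes Hist1h3b (229 bp, 226 bp and 231 bp in the vehicle, TGFβ and 10 min lists), Hist1h3d (200 bp, 236 bp and 202 bp) and Hist1h3i (178 bp, 227 bp and 203 bp) the interval covered the TSS in every list. At Hist1h3g it was 230 bp wide and ended 45 bp before the TSS in the vehicle list, and it was 288 bp and 363 bp wide and covered the TSS in the other lists. At the H4 genes Hist1h4b (266 bp, 280 bp and 294 bp), Hist1h4f (240 bp, 341 bp and 309 bp) and Hist1h4i (234 bp, 265 bp and 253 bp) it also covered the TSS in every list. Of the 7 H3 and H4 genes just named, all but Hist1h3b had a wider interval in the TGFβ list than in the vehicle list. Hist1h4k (171 bp, 420 bp and 218 bp) and Hist1h4a (292 bp, 628 bp and 637 bp) had the largest ratios of TGFβ to vehicle width among genes whose interval covered the TSS in both lists. The linker histone gene Hist1h1e had intervals of 443 bp (792), 438 bp (1000) and 401 bp (742), which reached 254 bp, 254 bp and 227 bp into the gene.

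A region within 1000 bp was not always the gene's own. In the vehicle list 5 open genes had no interval within 200 bp of the TSS (Hist1h4j, Hist1h3f, Hist1h3e, Hist1h3c and Hist1h1a), in the TGFβ list 3 (Hist1h3f, Hist1h3e and Hist1h3c) and in the 10 min list 2 (Hist1h3f and Hist1h3e). For Hist1h3f the interval was that of its neighbour Hist1h2bh, 410 bp or 385 bp before the Hist1h3f TSS at its near edge. For Hist1h3e the nearest interval ended 730 bp, 724 bp and 683 bp before the TSS. Hist1h3c was counted in the complete-medium lists through the interval of Hist1h2bb, whereas in the 10 min list it had its own interval of 227 bp with a score of 663.

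For Hist1h4j and Hist1h1a the complete-medium lists differed at the TSS itself. Hist1h4j, an H4 gene, had in the vehicle list no interval over its TSS, and its nearest one, 123 bp wide, ended 435 bp before the TSS. In the TGFβ list it had an interval of 235 bp (score 931) from -100 to +134, and in the 10 min list one of 673 bp (754). Hist1h1a, the gene of H1.1, had in the vehicle list only an interval that ended 817 bp before the TSS, against 263 bp (862) over the TSS in the TGFβ list and 304 bp (665) in the 10 min list. With a window of 200 bp in place of 1000 bp, the genes with a region in the TGFβ list and none in the vehicle list rose from 3 to 5 by the addition of these genes.

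Differences between the complete-medium lists were few. The TGFβ list had a region at 3 genes that had none in the vehicle list (4.48%, against 7.24% of all protein-coding genes), and the vehicle list had a region at 1 gene that had none in the TGFβ list (1.49%, against 0.622%). The share in the TGFβ list alone was below the background share, and the other direction is a single gene. More histone genes were already open in the vehicle list (61.2%, against 41.0%), so a smaller share of them could enter the first group. The lower share is therefore not read as a smaller gain at histone genes. The sequences from 150 before to 29 after the TSS of these 4 genes are shown because they carry the difference; they are read in the direction of the gene, on the plus strand of chromosome 13 of mm9 (chr13:23830526-23830705, chr13:21809347-21809526, chr13:23625625-23625804 and chr13:23842807-23842986), with the same motifs in capitals.
Hist1h1c: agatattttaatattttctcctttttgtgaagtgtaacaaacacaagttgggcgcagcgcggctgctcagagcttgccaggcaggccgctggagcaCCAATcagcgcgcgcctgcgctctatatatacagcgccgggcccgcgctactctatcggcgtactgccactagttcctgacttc
Hist1h3h: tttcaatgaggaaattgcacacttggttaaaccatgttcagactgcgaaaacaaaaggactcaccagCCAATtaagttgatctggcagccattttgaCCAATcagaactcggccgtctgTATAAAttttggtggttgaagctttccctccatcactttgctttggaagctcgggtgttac
Hist1h2af: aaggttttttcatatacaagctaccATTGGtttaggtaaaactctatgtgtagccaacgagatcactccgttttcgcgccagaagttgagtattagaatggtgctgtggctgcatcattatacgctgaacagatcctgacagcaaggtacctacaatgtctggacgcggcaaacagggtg
Hist1h2ab: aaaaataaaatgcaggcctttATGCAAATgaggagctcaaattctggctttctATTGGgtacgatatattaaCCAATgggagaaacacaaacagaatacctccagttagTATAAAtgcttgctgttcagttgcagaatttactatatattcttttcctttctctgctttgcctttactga
Each holds CCAAT on at least 1 strand.

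Hist1h1c, the gene of linker histone H1.2, had no interval within 1000 bp in the vehicle list or in the 10 min list. In the TGFβ list it had an interval of 349 bp from -109 to +239, at the score cap of 1000. Hist1h3h had none in the vehicle list, an interval of 202 bp (score 921) from -153 to +48 in the TGFβ list and one of 192 bp (642) in the 10 min list. Hist1h2af had none in the vehicle list, an interval of 281 bp (657) from -290 to -10 in the TGFβ list and one of 312 bp (916) in the 10 min list. Hist1h1c was thus the only one of the 3 that was absent from the 10 min list. When the TGFβ list was reduced to as many of its highest-scoring regions as the vehicle list holds, Hist1h1c and Hist1h3h stayed in this group and Hist1h2af left it. Under the same setting Hist1h4k and Hist1h1d joined Hist1h2ab, the gene found in the vehicle list alone, so that 2 genes were in the TGFβ list alone and 3 in the vehicle list alone, and the balance between the lists turned.

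Hist1h2ab went the other way. It had an interval of 293 bp (score 945) from -167 to +125 in the vehicle list and of 178 bp (749) in the 10 min list, and none in the TGFβ list. In the vehicle list this interval was joined with 2 neighbours into a region of 2732 bp that reached the next gene, Hist1h3b. In the TGFβ list the flanks were still listed: a region of 434 bp (score 1000) lay 1057 bp from the Hist1h2ab TSS on the upstream side, and Hist1h3b kept an interval of 226 bp (946) over its TSS.

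The 23 genes with no region in any list fell into 2 groups by how well short reads can be placed there. The libraries were read in paired reads of 75 bases, so each 75-base window of the promoter core, from 300 before to 100 after the TSS, was compared with the whole mm9 genome. At 9 of the 67 genes (13.4%, against 4.69% of protein-coding genes) fewer than 50% of these windows occurred once, and all 9 were among the 23. Of the 1048 protein-coding genes of this kind 50 (4.77%) had a region in any list, and closed chromatin cannot be told apart there from reads that were not placed. How the authors' pipeline treated reads that align to several places is not given in the sources used here. Of the other 58 histone genes, all with a core at least 90% unique, 41 (70.7%), 43 (74.1%) and 43 (74.1%) were open in the vehicle, TGFβ and 10 min lists.

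Of the 9 genes, 8 formed 4 pairs of near-identical copies. Hist1h2bq, Hist1h2ao and Hist1h4m face Hist1h4n, Hist1h2ap and Hist1h2br in an inverted repeat, and their cores were 0% unique at the H2A and H2B genes and 20.2% at the H4 genes. The sequence between Hist1h2bq and Hist1h2ao printed above recurs on the other strand between Hist1h2ap and Hist1h2br (chr13:21925444-21925612) with 169 of 169 bases identical. Over the promoter windows 300 of 300 bases were identical between Hist1h2bq and Hist1h2br and between Hist1h2ao and Hist1h2ap, and 299 of 300 between Hist1h4m and Hist1h4n. On chromosome 3, Hist2h2aa1 and Hist2h2aa2 also matched at 299 of 300 bases and had cores that were 38.2% unique, and the core of Hist2h3c1 was 33.3% unique. The Hist2h3c1 core was taken at its first annotated TSS (96049477), beside the Hist2h2aa1 TSS (96049461) and 1197 bp from its coding sequence. It is thus largely the promoter of Hist2h2aa1, and no core was measured closer to the coding sequence.

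The other 14 genes without a region had promoters that are at least 90% unique. They included the testis forms Hist1h1t, Hist1h2aa and Hist1h2ba. The H4 genes among them were Hist1h4c, Hist1h4h, Hist2h4 and Hist4h4, and the H3 gene was Hist2h3b. The H2A and H2B genes were the pair Hist1h2ak and Hist1h2bn, together with Hist1h2al, Hist2h2bb and Hist3h2ba, and the linker histone gene was Hist1h1b. With the 9 repeated genes left out, 24.1% of the histone genes thus had no region in any list.

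The genes outside Hist1 are given by cluster, beside a share of 39.9% of all protein-coding genes open in every list. Of the 9 Hist2 genes on chromosome 3 the pair Hist2h2ac and Hist2h2be, with 1 shared interval of 426 bp (982), 347 bp (1000) and 520 bp (1000), and Hist2h2ab, with 271 bp (877), 271 bp (1000) and 405 bp (859), were open in every list, and all 3 belong to 1 merged region in each. The other 6, Hist2h2aa1, Hist2h2aa2, Hist2h2bb, Hist2h3b, Hist2h3c1 and Hist2h4, had no region. Of these, Hist2h2aa1, Hist2h2aa2 and Hist2h3c1 have a largely repeated promoter core, where closed chromatin cannot be told apart from reads that were not placed. Of the Hist3 genes on chromosome 11 Hist3h2a was open and Hist3h2ba was not. Hist4h4, a lone gene on chromosome 6, had no region, while its neighbour H2afj, the gene of a variant H2A, had one in every list.

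Genes under 100 kb apart on a chromosome were taken as a cluster, widened by 5 kb on each side, which gave 8 clusters or lone genes over 512.32 kb. The clusters held 32 vehicle, 44 TGFβ and 42 10 min regions, or 62.5, 85.9 and 82.0 per Mb, against 7.45, 14.6 and 10.1 per Mb over the genome. The spans were drawn around the 67 histone genes and hold 4 other protein-coding genes, so they are far denser in genes than the genome. The densities were not matched for this, and they are not read as unusually open chromatin. The number of regions in the TGFβ list was 1.375 times that in the vehicle list in the clusters and 1.96 times over the genome. The covered length was 17.87 kb, 20.744 kb and 25.475 kb, with mean widths of 558 bp, 471 bp and 607 bp. The TGFβ to vehicle ratio of covered length was 1.16, against 1.89 over the genome. It depended on the joining of neighbours, and was 1.31 when touching or overlapping intervals alone were joined. The mix of regions at TSSs and away from them, given for the clusters below, was not matched to that of the genome in either ratio.

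Most regions in the clusters lay at a histone TSS, 26 of 32 in the vehicle list, 29 of 44 in the TGFβ list and 28 of 42 in the 10 min list. A further 1 in each list was at the TSS of H2afj. The regions away from protein-coding TSSs numbered 5, 14 and 13, so the lists differed more in these than in the regions at histone TSSs. Over the genome the vehicle and TGFβ lists held 19648 and 38532 regions, with 9163 and 10643 protein-coding genes open. No genome count of regions away from TSSs is set beside these, so the difference is not read as particular to the clusters. All 5 of the vehicle list overlapped a region of both other lists. Of the 14 in the TGFβ list 12 overlapped a region of the 10 min list and 6 one of the vehicle list. One of those present in all 3 lists lay in the largest cluster, 7987 bp from the Hist1h1c TSS in the vehicle list, with widths of 307 bp, 383 bp and 900 bp, each at the cap. Of those without vehicle overlap, one 2752 bp from the Hist1h4c TSS was 249 bp wide (807) in the TGFβ list and 273 bp (832) in the 10 min list. Another pair flanked the inverted repeat, 6841 bp from Hist1h2bq and 6788 bp from Hist1h2br in the TGFβ list.

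**Figure D4:**
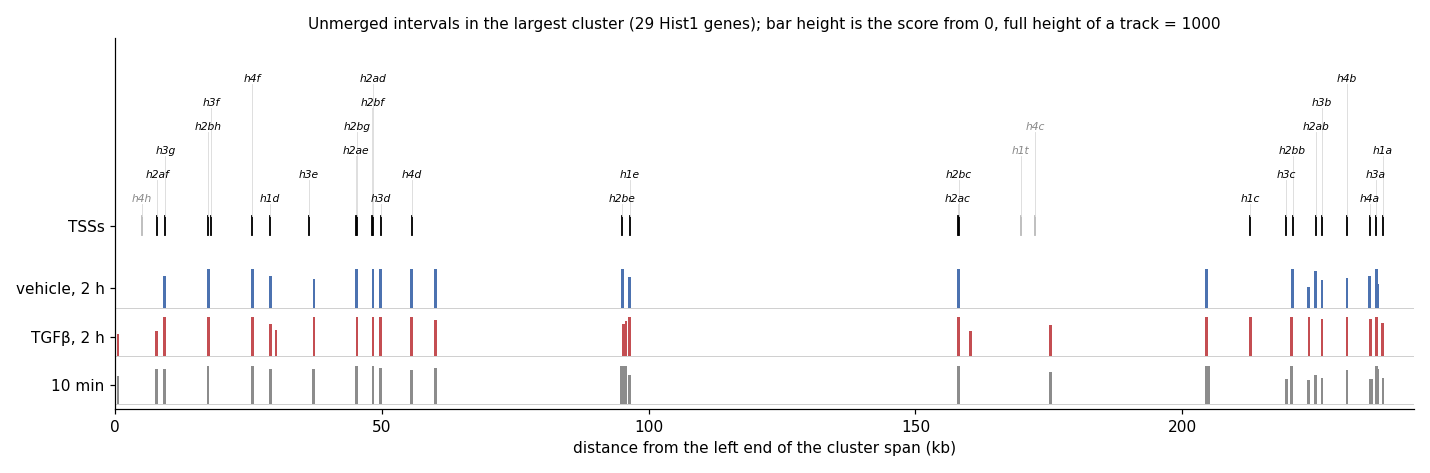
Map of the largest cluster (29 Hist1 genes over 243.365 kb on chromosome 13), with distance from its left end in kb on the x axis, annotated TSSs on top (grey names had no region in any list) and unmerged intervals of at least 150 bp below, 1 track per list. Bar height is the score drawn from 0, to be read within a list, and intervals narrower than 0.5 kb are drawn 0.5 kb wide. Of the regions in this cluster, 15 of 17 in the vehicle list, 17 of 23 in the TGFβ list and 17 of 22 in the 10 min list lay at a histone TSS.

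The clusters differed in density. The largest, with 29 genes, had 24, 25 and 25 open genes in the vehicle, TGFβ and 10 min lists, and the smaller one with 5 genes (Hist1h2ah to Hist1h2bj) had all 5 open in each. The cluster of 18 genes that holds the inverted repeat had 8, 9 and 9 open genes. The cluster of the testis pair had 1 region in each list, which lay 5143 bp, 5185 bp and 5067 bp from the Hist1h2ba TSS and at no histone TSS. Hist1h2al, which lies apart from the other Hist1 genes, had no region within 5 kb in any list.

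The listed genes that act on histone genes and histones were open throughout. The share open in every list was 39.9% for all protein-coding genes and 81.5% for ribosomal protein genes. All 8 of a list of regulators of histone gene transcription had a region in every list, among them Npat, the coactivator driven by cyclin E and Cdk2, and Hinfp, which binds H4 promoters. So did all 9 of a list for the processing of the transcript end, among them Slbp, which binds the stem-loop, and all 9 histone chaperones, among them Chaf1a and Chaf1b of chromatin assembly factor 1. Of the 10 listed histone variants that are made outside S phase, 9 were matched by symbol, and 7 of these were open in every list, while H1fx and H2afy2 had no region in any list. None of these genes differed between lists.

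Of 6 epithelial marker genes, 2 had a region in the vehicle list and 3 in each of the others. The keratin genes Krt8 and Krt18 had one in every list, Cldn4 in the TGFβ list alone and Cdh1 in the 10 min list alone, while Epcam and Cldn3 had none. The blood markers Ptprc and Cd3e and markers of endothelium (Pecam1, Cdh5 and Tek) and adipocytes (Adipoq and Plin1) had no region in any list.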

How the data were processed

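ATAC-seq was measured in 4 NMuMG samples, 1 per group. Per the study's methods the authors trimmed, aligned to mm9 and filtered reads with the ENCODE ATAC-seq pipeline, called peaks with MACS2 (2.1.2) and kept peaks by the irreproducible discovery rate (IDR) between replicates, while the labels give 1 sample per condition. The deposited score of each peak is a scaled IDR, from 540 to a cap of 1000, and was compared only within a list. No shift of reads to the Tn5 cut site is named for the peak calls. The lists hold 48339, 87916 and 75736 lines, 1 per summit. The lists give no depth, and the study's read totals were not used as data.

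Repeated lines were reduced to distinct intervals. Intervals under 150 bp were dropped and gaps under 1000 bp joined. Genes, TSSs and start and stop codons came from GENCODE vM1, and sequences from the NCBIM37 (mm9) genome. The annotated TSS of 9 histone genes is the start codon. Uniqueness was counted in 75-base windows over the genome, and the window and overlap code was tested on simulated data. Python 3.11.15, numpy 2.4.6, pandas 2.3.3 and matplotlib 3.10.9 were used.

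The genes named were those whose calls differ or are absent, the widest of each family in the vehicle list, and all of Hist2, Hist3 and Hist4. The genes and lists were chosen with earlier results of these data known. Other genes and regions singled out in the text were chosen after their values were seen. One marker gene is not reported here.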

Additional observations from a re-analysis of the deposited data

Results flagged for a closer look

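Hist1h1b, the gene of linker histone H1.5, was counted as having no region, but intervals under 150 bp are set aside by the rule. The TGFβ list holds an interval of 148 bp (score 686) over its TSS, from -86 to +61, and the vehicle list holds none there. This interval was singled out because it lies in data that the counts above do not use. In the 10 min list the nearest interval was 117 bp wide (887) and began 851 bp after the TSS, beyond the end of the 743 bp gene. With no replicate lists the difference was not tested.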

How the results depend on the processing

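No single count or ratio was reversed, and 49 of 69 alternative values stayed within 1.5 times the main count (5% for the ratio of covered lengths). The 49 include the values with the repeated genes left out, which could not change because none of those genes had a region. Numbers of open genes moved under these settings. With a minimum width of 300 bp the vehicle count was 26, and 7 genes were in the TGFβ list alone and 0 in the vehicle list alone, with 19 vehicle and 25 TGFβ regions in the clusters. With only the peaks that reached the median score of their list the vehicle count was 27, with 10 and 3 genes in 1 list alone. When a region counted for its nearest TSS only, 24, 28 and 27 genes were open, with 9 and 5 in 1 list alone. TSS windows of 200 bp and 500 bp each gave 5 genes in the TGFβ list alone. With only as many top TGFβ regions as there were vehicle regions, 2 genes were found in the TGFβ list alone and 3 in the vehicle list alone, against 3 and 1, and 40 genes were open against 41 in the vehicle list, so the balance between the lists turned. The ratio of covered lengths was 1.31 with overlapping intervals joined, 1.37 with the 300 bp minimum, 1.65 with the median score and 1.35 with clusters joined under 250 kb. Except where a value or the construction of the setting shows it, the cause was not tested. Chosen after seeing the data were the start codon in place of the TSS (41, 44 and 44 open genes), leaving out the repeated genes, and that count of 40 open genes. No paired analysis was possible because only single lists were at hand.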

Other observations

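Among 3 histone pseudogenes left out by the rule, Hist3h2bb-ps and Hist1h2aj had a region within 1000 bp of the TSS in every list and Hist2h3c2 in none. They stand beside Hist3h2a, Hist1h2bm and the Hist2 genes, and the first and second overlap or adjoin the promoter of the named neighbour, so their regions cannot be told apart from those of the neighbour.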
